A study of Mus musculus with 9 samples.

Results

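Vasoactive peptide receptors and endothelin are described here as a set of 7 genes chosen by symbol: the kinin receptors Bdkrb1 and Bdkrb2, the endothelin receptors Ednra and Ednrb, the endothelin-1 precursor Edn1, the angiotensin II receptor Agtr1a and the endothelin-converting enzyme Ece1. The set was chosen from levels across the same 3 genotypes in these libraries, so its members are described with no p; the only use of the fit's threshold for them is a count set beside the share of all genes called, which is a description. Of the 7 symbols, 3 (Bdkrb1, Bdkrb2 and Ece1) had a row among the 14020 genes of the deposited table, and Ednra, Ednrb, Edn1 and Agtr1a are not analysed here. The study measured RNA in mouse hepatic stellate cells, the pericyte-like cells of the liver sinusoid, cultured for 4 days in DMEM with 10% fetal bovine serum and kept in basal conditions without further treatment. There were 3 libraries of wild-type cells (WT), 3 of cells with a knock-out of Sqstm1, the gene of the autophagy receptor p62 (Sqstm1 KO), and 3 of cells with a knock-out of both Sqstm1 and Nbr1, the gene of a related autophagy receptor (Nbr1-Sqstm1 DKO). The knock-out of Sqstm1 was thus shared by the last 2 groups, and the series' title places NBR1 and p62 in opposite roles in these cells. The sources used here give no strain, age or kind of allele, nor whether libraries came from separate animals, so the spread between libraries may be technical.

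Kinins are short peptides cut from kininogens. The B2 receptor (Bdkrb2) binds bradykinin and is the receptor most tissues carry at rest, whereas the B1 receptor (Bdkrb1) binds kinins shortened by a carboxypeptidase and is known for its induction in injury and inflammation. Both are coupled to Gq, as are the endothelin and angiotensin II receptors through which stellate cells are known to contract; ECE1 cuts big endothelin-1 to its active form and also degrades bradykinin.

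Across the series, 819677 to 1467793 reads per library were assigned to genes. Values are normalized counts, meaning reads scaled by a library's size factor, and 1 read was worth 0.606 to 1.36 of them. Sqstm1 averaged 240 ± 16 in WT, 52.8 ± 30 in Sqstm1 KO and 45.7 ± 18 in Nbr1-Sqstm1 DKO libraries (SD, n = 3), lower in both knock-out groups than in WT (limma adjusted p = 0.0023 and 0.0012); it overlaps Mrnip on the opposite strand. Nbr1 averaged 101, 78.9 and 90.7 and was not called in any comparison (limma adjusted p = 0.45, 0.72 and 0.74), so these counts do not check its loss. Sqstm1 KO replicate 3 stood apart, with the fewest genes detected (12673), the largest share of reads in its 10 highest genes (18.5%) and correlations across genes of 0.861 and 0.863 with its own group. No read of the Y-linked genes searched was counted in the 3 Sqstm1 KO libraries, against 129 to 292 in WT and 80 to 89 in Nbr1-Sqstm1 DKO libraries, so genotype and this difference cannot be told apart in comparisons with Sqstm1 KO. WT and Nbr1-Sqstm1 DKO libraries differed without overlap in Ddx3y (means 73.5 and 49.0) and Eif2s3y (65.9 and 15.1). They overlapped in Kdm5d (20.5 and 20.3) and Uty (16.5 and 12.2). Comparisons of these 2 groups thus also carry a difference in Y-linked genes. Of 10 stellate cell markers, Pdgfrb and Hand2 had a row; all 8 markers of activated stellate cells had one. An exon overlap on the opposite strand was annotated for 71 of the 100 genes with the highest values, against 36.3% of the others. Pcsk7, which overlaps the smooth muscle gene Tagln on the opposite strand, averaged 2116, 19637 and 10142 in WT, Sqstm1 KO and Nbr1-Sqstm1 DKO, against 114, 462 and 237 for Tagln. Which strand setting the counting used is not stated in these sources. Counts may therefore be of the strand opposite to the gene named, and this limit applies to every level given here, those of the 3 members included, although no exon overlap on the opposite strand is annotated for them. Its part in any value was not tested.

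Bdkrb2, the B2 receptor gene, was nearly silent in WT and Sqstm1 KO cells and well above that in Nbr1-Sqstm1 DKO cells. It read 1.36, 4.52 and 2.43 normalized counts in the WT libraries, 0, 0 and 5.42 in the Sqstm1 KO libraries and 113, 58.2 and 91.7 in the Nbr1-Sqstm1 DKO libraries. The lowest Nbr1-Sqstm1 DKO library lay above every other library, while WT and Sqstm1 KO overlapped. As reads, these values rested on 11 in WT, 5 in Sqstm1 KO (all 5 in replicate 3) and 241 in Nbr1-Sqstm1 DKO. Among all genes of the table the median library placed Bdkrb2 at the 11.1th percentile in WT, the 3.88th in Sqstm1 KO and the 86.0th in Nbr1-Sqstm1 DKO.

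The group means were 2.77 ± 1.6, 1.81 ± 3.1 and 87.6 ± 28 (SD, n = 3). The Nbr1-Sqstm1 DKO mean was thus 48.5 times the Sqstm1 KO mean and 31.6 times the WT mean. The ratio of summed reads, scaled by library size, was 55.8 against Sqstm1 KO (95% interval 23.6 to 173) and 30.0 against WT (16.5 to 61.0), intervals that cover counting error only. On the log2(value + 1) scale the differences were 5.52 (SE 0.69) and 4.59 (SE 0.69), and Sqstm1 KO minus WT was -0.93 (SE 0.69). Leaving out any 1 library kept the first between 5.08 and 6.42 and the second between 4.30 and 4.91; with a pseudocount of 5 they were 3.81 and 3.55. The 3 comparisons share libraries, so their values stand side by side and not as separate evidence.

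**Figure D1:**
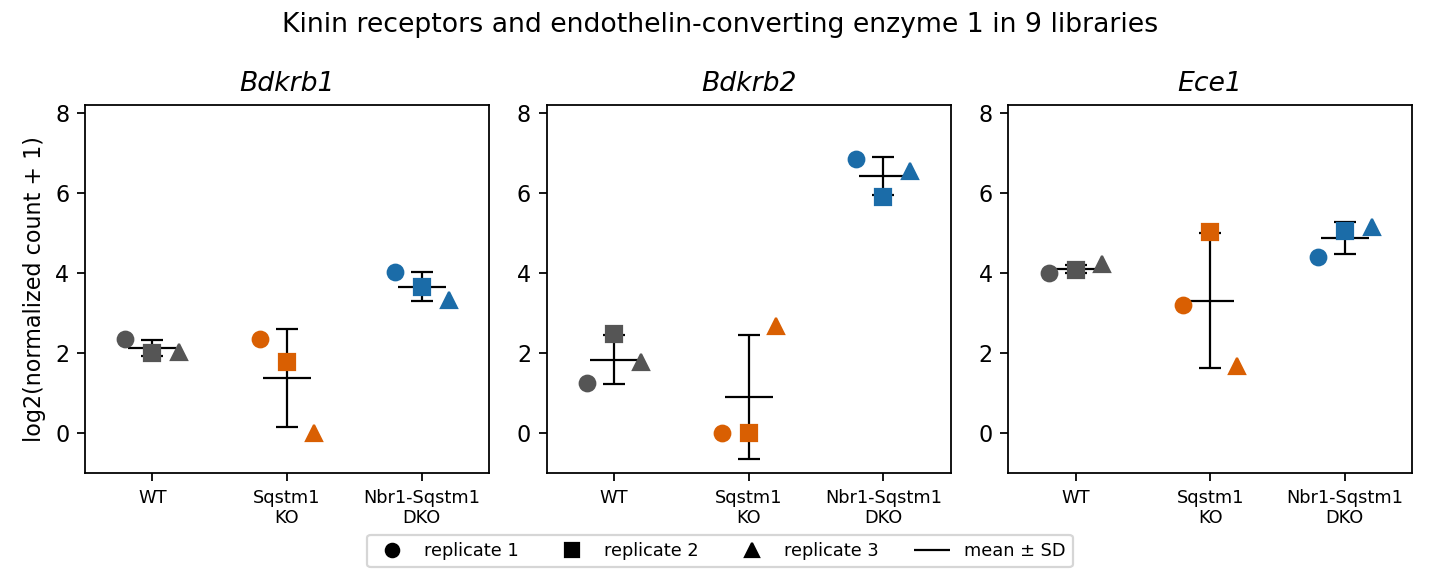
Normalized counts of Bdkrb1, Bdkrb2 and Ece1 in each of the 9 libraries, as log2(value + 1); points are libraries with the marker shape giving the replicate, and the bar and whiskers give the mean ± SD of 3 libraries. The Nbr1-Sqstm1 DKO libraries lie above all others for both kinin receptors (58.2 to 113 for Bdkrb2), and the Sqstm1 KO libraries of Ece1 spread from 2.17 to 31.7.

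The window of 250 bases before the annotated start of Bdkrb2 is shown because this gene carried the largest difference among the members. It comes from RefSeq on GRCm38.p6, chr12:105562922-105563171, plus strand; 2 of the 3 members had an entry in that table.
Bdkrb2 promoter: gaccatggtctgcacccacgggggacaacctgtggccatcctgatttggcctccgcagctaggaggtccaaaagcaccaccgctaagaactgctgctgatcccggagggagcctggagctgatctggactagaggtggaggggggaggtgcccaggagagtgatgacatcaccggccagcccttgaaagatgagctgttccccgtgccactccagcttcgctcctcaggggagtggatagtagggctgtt
No base is in capitals, because none of 6 motifs searched on both strands had a match in the window. These were, with the share of 32851 windows of this length holding each, TGANTCA for the factor AP-1 (6.75%), AGATAA for the GATA factors (9.99%), ACGTG for the hypoxia response (16.6%), TTCNNNGAA for STAT factors (7.02%), GGGANNTTC for NF-kB (3.23%) and TATAAA for a promoter's start box (12.4%). Of the 4 windows of Ece1, 1 held ACGTG, on both strands in overlapping matches.

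Bdkrb1, the B1 receptor gene, followed the same order at a lower level. It read 4.09, 3.01 and 3.03 in WT, 4.08, 2.43 and 0 in Sqstm1 KO and 15.3, 11.4 and 8.92 in Nbr1-Sqstm1 DKO libraries. All 3 Nbr1-Sqstm1 DKO libraries lay above all others, and WT and Sqstm1 KO overlapped. The means were 3.38 ± 0.61, 2.17 ± 2.1 and 11.9 ± 3.2 (SD, n = 3), from 12, 7 and 33 reads. The read ratio of Nbr1-Sqstm1 DKO was 5.46 against Sqstm1 KO (95% interval 2.37 to 14.6) and 3.77 against WT (1.90 to 8.02), and that of Sqstm1 KO to WT was 0.691 (0.230 to 1.90). The mean log2(value + 1) differed by 2.28, 1.54 and -0.75 in the same order, and the first fell to 1.26 with a pseudocount of 5. Bdkrb1 did not reach a value of 10 in 3 libraries and was outside the fit, so no fitted error is given.

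The kinin receptors are neighbours on the plus strand, Bdkrb2 before Bdkrb1, with no annotated gene between them. Of the genes around them, Glrx5 upstream and Atg2b downstream did not pass the threshold in any comparison. Atg2b, a lipid transfer protein of autophagosome formation, averaged 26.8, 19.1 and 43.3 (Nbr1-Sqstm1 DKO against Sqstm1 KO 1.22, SE 0.43, limma adjusted p = 0.13). It overlaps Gskip on the opposite strand. Serpina3n, a serine protease inhibitor gene 4 places before Bdkrb2 among genes with a row, lay under the filter and read 14.3, 3.42 and 3.82 in Nbr1-Sqstm1 DKO, 1.36, 0 and 0 in WT and 0 in all Sqstm1 KO libraries.

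**Figure D2:**
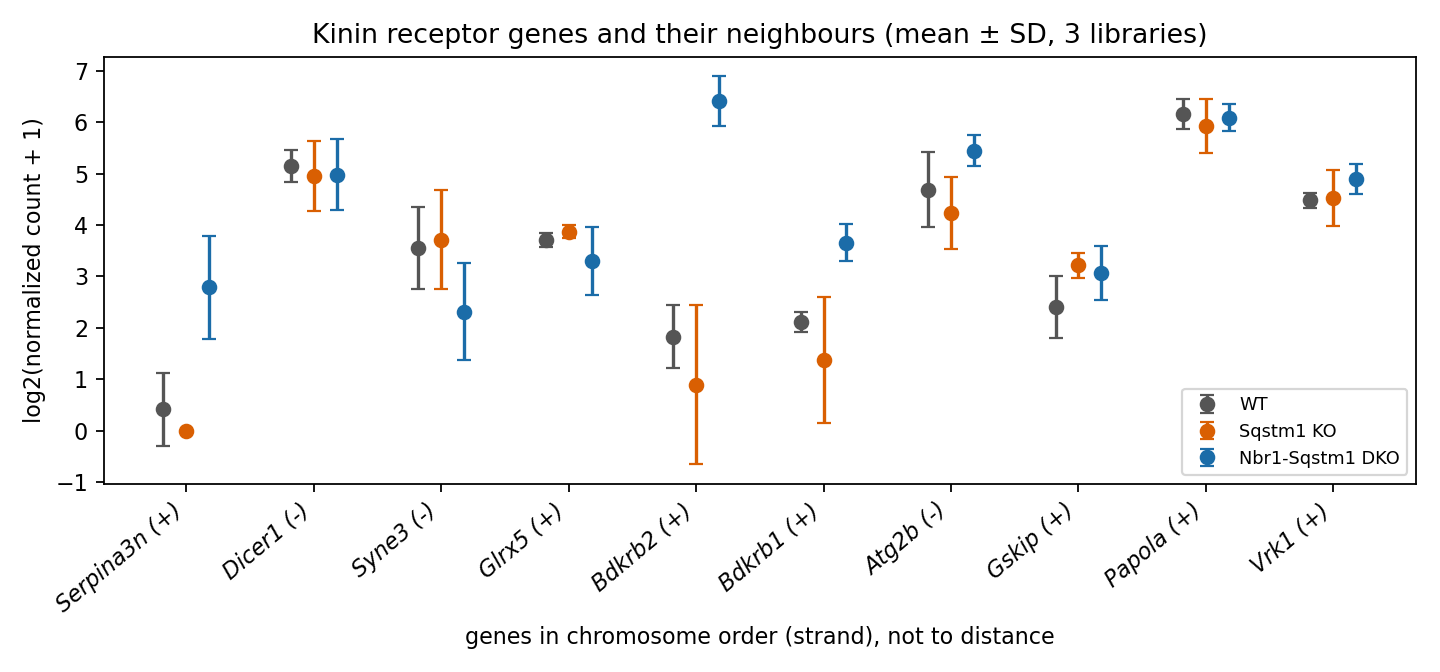
Group means ± SD (3 libraries each) of log2(normalized count + 1) for the kinin receptor genes and the genes beside them that had a row, in chromosome order and not to distance. Bdkrb2, at 87.6 normalized counts on average in Nbr1-Sqstm1 DKO, stands above the other groups, while Dicer1, Papola and Vrk1 show group means close to each other.

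Ece1 differed less than either kinin receptor in the comparisons with Nbr1-Sqstm1 DKO, on the log2(value + 1) scale. It read 15.0, 15.8 and 17.6 in WT, 8.17, 31.7 and 2.17 in Sqstm1 KO and 20.1, 32.0 and 34.4 in Nbr1-Sqstm1 DKO libraries. Every Nbr1-Sqstm1 DKO library lay above every WT library, and the Sqstm1 KO libraries spanned both. The means were 16.1 ± 1.3, 14.0 ± 16 and 28.8 ± 7.7 (SD, n = 3), from 61, 49 and 76 reads. On the log2(value + 1) scale, Sqstm1 KO minus WT was -0.80, Nbr1-Sqstm1 DKO minus Sqstm1 KO 1.57 and Nbr1-Sqstm1 DKO minus WT 0.77 (SE 0.63 each). Without Sqstm1 KO replicate 3, the first came to 0.02 and the second to 0.75. Without Sqstm1 KO replicate 2, they came to -1.67 and 2.43. The read ratio was 1.71 (1.20 to 2.43) for Nbr1-Sqstm1 DKO against WT. Gm13012, annotated antisense beside Ece1 without an exon in common, averaged 5.5, 9.85 and 15.9 and was not called (Nbr1-Sqstm1 DKO against WT 1.41, limma adjusted p = 0.14). Alpl, the tissue-nonspecific alkaline phosphatase before Ece1, lay under the filter and was at 0 in WT, at 0, 0.812 and 0 in Sqstm1 KO and at 6.69, 21.7 and 12.7 in Nbr1-Sqstm1 DKO libraries.

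Set against the background of the fit, 2 of the 3 members were in the fit, and 1 of them, Bdkrb2, lay past its threshold in each comparison with Nbr1-Sqstm1 DKO and none in Sqstm1 KO against WT. The share of all 10118 tested genes called was 5.61% in Sqstm1 KO against WT (2.43% higher, 3.18% lower), 5.93% in Nbr1-Sqstm1 DKO against Sqstm1 KO (4.42% higher, 1.51% lower) and 6.42% in Nbr1-Sqstm1 DKO against WT (4.11% higher, 2.31% lower). Groups did not overlap for 0, 2 and 3 of the 3 members in these comparisons, against 26%, 21% and 31.2% of tested genes. Nothing is read from these counts, because the members were chosen on the same contrasts and Bdkrb2 passed the filter only through the group where it was high.

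By the correlation of log2(value + 1) over the 9 libraries, the genes most like Bdkrb2 were Tpi1, a glycolytic enzyme (r = 0.980), Svep1, an extracellular matrix protein (0.973), and Tmem176b (0.969). Svep1 averaged 7.30, 6.94 and 153 in WT, Sqstm1 KO and Nbr1-Sqstm1 DKO, and Tmem176b 40.2, 42.1 and 182. Tpi1 varied far less, at 188, 171 and 255. It was not called in Nbr1-Sqstm1 DKO against Sqstm1 KO (0.58, SE 0.23, limma adjusted p = 0.19). Svep1, Tmem176b and Tpi1 each have an annotated overlap on the opposite strand. Those most like Ece1 were Gtpbp2 (0.960), Mdc1 (0.953) and Gpcpd1 (0.943). These points share libraries, depth and group means, and the values are descriptions.

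Markers of other cells were read beside the receptors. Bdkrb2 is also expressed by endothelial cells; of 12 endothelial markers, Stab1 and Stab2 had a row and summed to 70.3 to 88.5 in WT, 56.8 to 191 in Sqstm1 KO and 92.8 to 191 in Nbr1-Sqstm1 DKO libraries. Neither was called over all libraries (limma adjusted p from 0.15 to 0.70). Without Sqstm1 KO replicate 3, Stab1 was called higher in Nbr1-Sqstm1 DKO than in Sqstm1 KO and WT (limma adjusted p = 0.035 and 0.020). Stab1 overlaps Nt5dc2 on the opposite strand, and Stab2 overlaps Gm16268. Of 8 portal fibroblast and mesothelial markers, Thy1, Wt1, Igfbp6, Fbln2 and Cd34 had a row and summed to 206 to 244 in WT, 242 to 435 in Sqstm1 KO and 325 to 335 in Nbr1-Sqstm1 DKO. Fbln2 made most of this sum, at means of 191, 338 and 297. It was not called over all libraries (limma adjusted p = 0.12, 0.82 and 0.18). Without Sqstm1 KO replicate 3 it was called in both comparisons with WT (0.0071 and 0.039). Wt1, a mesothelial transcription factor under the filter, was at 0 in all 6 WT and Sqstm1 KO libraries and at 1.91, 12.6 and 2.55 in Nbr1-Sqstm1 DKO. These values rest on only 2, 11 and 2 reads. Like Bdkrb2, Wt1 was higher in every Nbr1-Sqstm1 DKO library than in any other. Groups also did not overlap for 21% of tested genes against Sqstm1 KO and 31.2% against WT. Cd34, a surface protein also found on endothelial cells, averaged 2.07, 6.74 and 13.4 and rose in Nbr1-Sqstm1 DKO against WT (2.37, SE 0.60, limma adjusted p = 0.028), a call lost without WT replicate 2 or 3 or any 1 Nbr1-Sqstm1 DKO library (up to 0.13). It overlaps Gm16897 on the opposite strand. Cd34 passed the filter only with its Nbr1-Sqstm1 DKO libraries, the group where it was high, which limits its adjusted p. Igfbp6, an insulin-like growth factor binding protein, averaged 25.7, 2.30 and 11.6: it fell in Sqstm1 KO against WT (-3.33, SE 0.59, limma adjusted p = 0.0038) and rose in Nbr1-Sqstm1 DKO against Sqstm1 KO (2.23, SE 0.59, limma adjusted p = 0.040), the second call being lost when any library but Sqstm1 KO replicate 2 was left out (up to 0.15). Of 5 cholangiocyte markers, Sox9 and Spp1 had a row and summed to 16.3 to 26.4, 29.2 to 34.7 and 25.8 to 49.1. The 4 macrophage markers with a row summed to 20.3 to 35.4, 8.68 to 12.3 and 14.3 to 29.3. Most of that dip was Cd14, which averaged 17.6, 1.29 and 11.1. It fell in Sqstm1 KO against WT (-3.24, SE 0.59, limma adjusted p = 0.0046), also without any 1 library. Its rise in Nbr1-Sqstm1 DKO against Sqstm1 KO (2.53, limma adjusted p = 0.020) was lost without Nbr1-Sqstm1 DKO replicate 3 (0.12) or with only these groups fitted. Igfbp6 and Cd14 passed the filter only with their WT libraries, the group where they were high. The adjusted p-values of their falls from WT carry the same limit as that of Cd34. Cd68 averaged 4.28, 3.98 and 4.04, Csf1r 1.97, 3.05 and 3.20 and Mpeg1 1.77, 2.71 and 2.67, all under the filter. The 4 smooth muscle markers with a row summed to 20.4 to 37.7, 210 to 235 and 93.0 to 142. Actg2 made the largest part of that sum in both knock-out groups (means 158 and 73.7). Smtn averaged 10.1, 11.9 and 7.66 and was not called. None of the 6 hepatocyte and 6 lymphocyte markers had a row. In bulk RNA, more cells of a type and more RNA per cell cannot be told apart, and the part of these markers in the receptor levels was not tested.

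The wider pathways held 164 listed genes other than the members, of which 79 had a row and 58 were tested. In Sqstm1 KO against WT 9 rose and 1 fell, in Nbr1-Sqstm1 DKO against Sqstm1 KO 4 rose and 4 fell, and in Nbr1-Sqstm1 DKO against WT 8 rose and 2 fell. These were 17.2%, 13.8% and 17.2% of the 58, against 5.61%, 5.93% and 6.42% of all tested genes. The overall shares also stand beside the counts of the smaller lists below. Contractile genes made up 8 of the 9 that rose in the first comparison. They were 3 of the 4 that fell in the second and 5 of the 8 that rose in the third. The median log2 differences of the 58 were 0.21, -0.15 and 0.09, against -0.01, -0.01 and -0.02 over all tested genes. At an unadjusted p under 0.05 by limma there were 21, 14 and 17, of which 10, 4 and 7 were contractile genes. The share of all tested genes at that threshold is not given here, so nothing is read from these counts.

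Near the ligands, no gene was called. None of 3 tested kallikrein-kinin genes, 6 renin-angiotensin genes or the 1 endothelin processing gene, Furin, passed in any of the 3 comparisons by limma, although 2 kallikrein-kinin genes had an unadjusted p under 0.05 in Nbr1-Sqstm1 DKO against WT and 1 renin-angiotensin gene in Nbr1-Sqstm1 DKO against Sqstm1 KO. Furin, the protease that cuts the endothelin precursor, averaged 23.9, 17.2 and 15.9 (limma adjusted p = 0.47, 0.97 and 0.49). It overlaps the predicted gene Gm44851 on the opposite strand. The symbols Agt, Ace, Agtr1b, Agtr2, Kng1, Kng2, Ece2, Edn2 and Edn3 are not analysed here. Serping1, the C1 inhibitor that restrains kinin release, lay under the filter: it was at 0 in all 6 WT and Sqstm1 KO libraries and at 5.74, 7.99 and 10.2 in Nbr1-Sqstm1 DKO. Its mean there was at least 9.86-fold higher than in WT and at least 8.33-fold higher than in Sqstm1 KO, taking 3 reads per group as the floor; it was named after its values were seen.

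Among other receptors, Npr3, the natriuretic peptide clearance receptor, rose in both knock-out groups and did not differ between them beyond its error. It read 4.09, 5.27 and 3.64 in WT, 60.2, 47.9 and 22.8 in Sqstm1 KO and 44.0, 36.5 and 36.9 in Nbr1-Sqstm1 DKO. The log2 differences from WT were 2.97 and 2.92 (SE 0.38, limma adjusted p = 0.00036 and 0.00031), and the difference between the knock-outs was -0.05 (SE 0.38, limma adjusted p = 0.96). Both calls held without any 1 library. Npr3 overlaps the predicted gene Gm5144.

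Lpar1, a lysophosphatidic acid receptor, was low in Sqstm1 KO. It read 38.1, 47.5 and 43.1 in WT, 19.4, 16.2 and 9.76 in Sqstm1 KO and 56.4, 44.5 and 58.6 in Nbr1-Sqstm1 DKO. Nbr1-Sqstm1 DKO lay above Sqstm1 KO by 1.79 (SE 0.31, limma adjusted p = 0.0030), a call that held without any 1 library. The fall from WT to Sqstm1 KO was -1.49 (SE 0.31, limma adjusted p = 0.012) and was lost without WT replicate 2 or 3 (0.080 and 0.055). Ptgir, the prostacyclin receptor, averaged 16.1, 6.76 and 23.9; its call in Nbr1-Sqstm1 DKO against Sqstm1 KO (1.62, SE 0.44, limma adjusted p = 0.044) was lost when any library but Sqstm1 KO replicate 1 or Nbr1-Sqstm1 DKO replicate 2 was left out (0.060 to 0.19), with quantile normalization and with only these groups in the fit. Avpr1a, the V1a vasopressin receptor, lay under the filter and read 8.17, 7.53 and 10.3 in WT, 0 in all 3 Sqstm1 KO libraries and 13.4, 7.99 and 8.92 in Nbr1-Sqstm1 DKO. Its mean was at least 9.06-fold lower in Sqstm1 KO than in WT and at least 10.5-fold higher in Nbr1-Sqstm1 DKO than in Sqstm1 KO; it, too, was named after its values were seen.

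**Figure D3:**
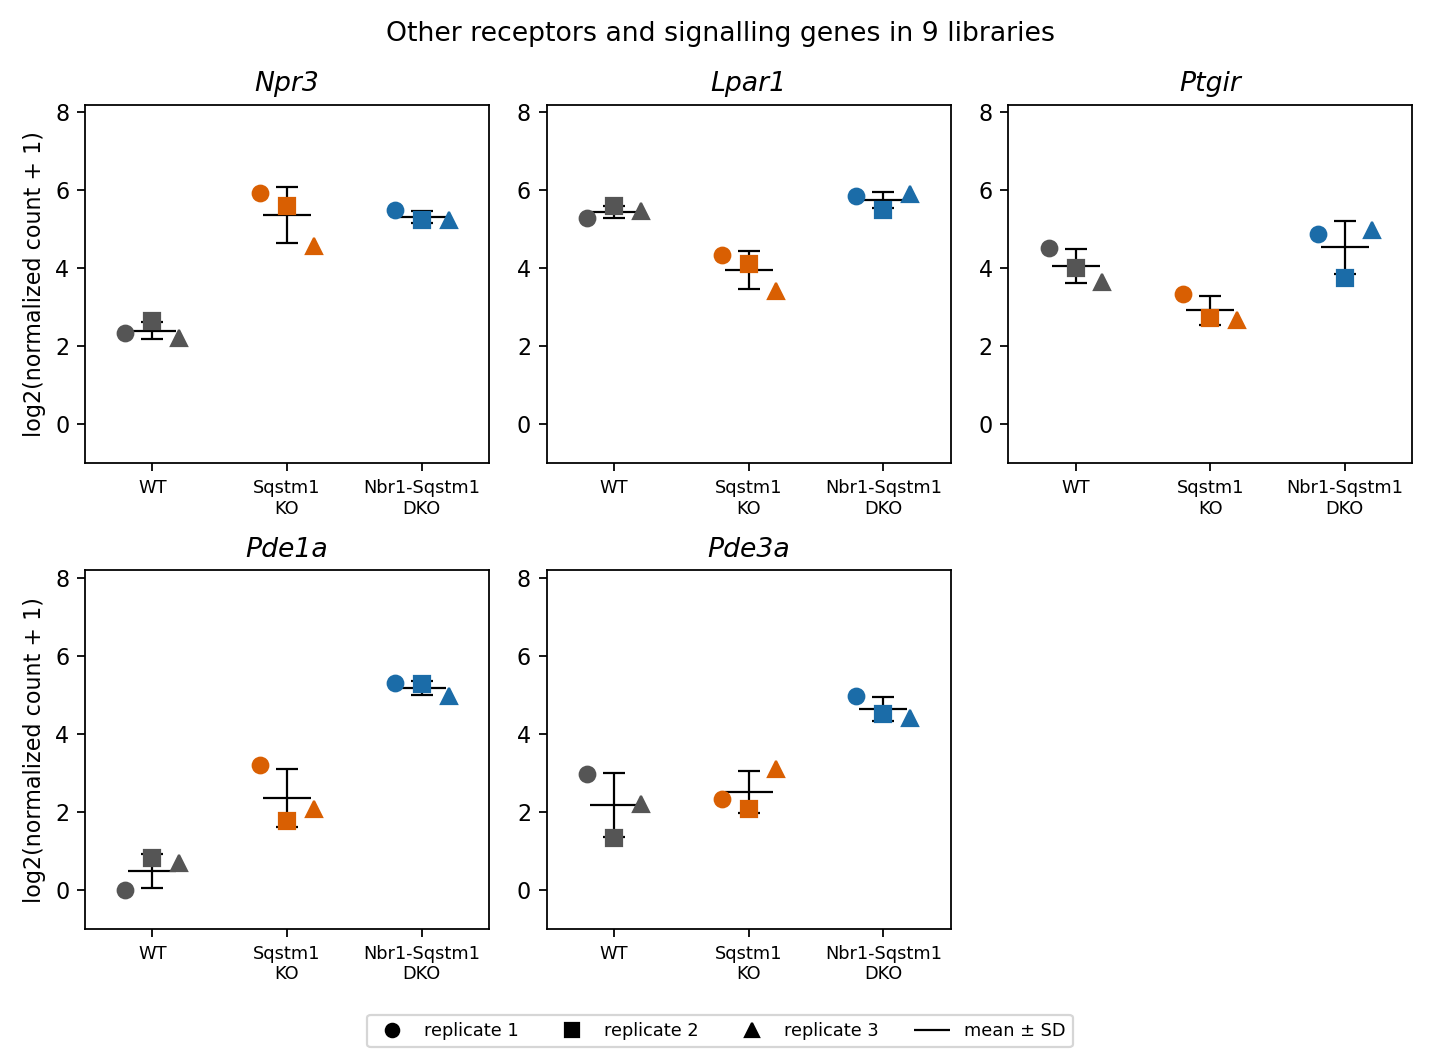
Normalized counts of 5 other receptor and signalling genes in the 9 libraries as log2(value + 1), with the mean ± SD of 3 libraries. Npr3 is high in both knock-out groups, Lpar1 and Ptgir are lowest in Sqstm1 KO, and Pde1a and Pde3a are highest in Nbr1-Sqstm1 DKO.

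Downstream of the receptors, 2 of 3 tested nitric oxide and cyclic GMP genes rose in Nbr1-Sqstm1 DKO against each other group. These 2, Pde1a and Pde3a, passed the filter only through Nbr1-Sqstm1 DKO, the group where they were high. Only 3 of the 11 listed genes were tested, so nothing is read from the count. The adjusted p-values of Pde1a and Pde3a below carry the same limit of the filter. Pde1a, a calcium-activated phosphodiesterase, read 0, 0.753 and 0.606 in WT, 8.17, 2.43 and 3.25 in Sqstm1 KO and 38.2, 37.7 and 30.6 in Nbr1-Sqstm1 DKO, in 3 groups that did not overlap. Its log2 difference was 4.68 from WT and 2.83 from Sqstm1 KO (SE 0.55, limma adjusted p = 0.00011 and 0.0064), and both calls held without any 1 library. Sqstm1 KO minus WT was 1.86 (SE 0.55, limma adjusted p = 0.067) and, of the alternatives run, passed only with quantile normalization (0.028). Pde3a, a phosphodiesterase inhibited by cyclic GMP, averaged 3.98, 4.97 and 24.2 and rose by 2.47 from WT and 2.12 from Sqstm1 KO (SE 0.53, limma adjusted p = 0.011 and 0.028), calls that were lost without WT replicate 2 or Nbr1-Sqstm1 DKO replicate 1 in the first case (0.068 and 0.059) and without Sqstm1 KO replicate 1 or 2 or any Nbr1-Sqstm1 DKO library in the second (0.062 to 0.12). It overlaps the predicted gene Gm28523.

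None of 5 tested desensitization genes was called by limma. Rgs4, which shortens Gq signals and lay under the filter, read 0 in WT, 0, 0.812 and 3.25 in Sqstm1 KO and 9.56, 18.3 and 6.37 in Nbr1-Sqstm1 DKO, at least 14.1-fold higher than in WT, and was named after its values were seen.

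The contractile genes took another course than the kinin receptors. Of 11 tested, 8 rose in Sqstm1 KO against WT, 3 fell in Nbr1-Sqstm1 DKO against Sqstm1 KO and 5 rose in Nbr1-Sqstm1 DKO against WT. The contractile shares called were 72.7%, 27.3% and 45.5%. Over all tested genes, the shares called in those directions were 2.43%, 1.51% and 4.11%. Acta2, smooth muscle actin, averaged 84.5, 819 and 382, with differences of 3.25, -1.14 and 2.10 (SE 0.29, limma adjusted p = 1.6e-05, 0.032 and 0.00046). Actg2, the enteric form, averaged 7.05, 158 and 73.7, with differences of 4.31, -1.11 and 3.20 (SE 0.28, limma adjusted p = 6.1e-07, 0.030 and 8.2e-06). The calls against WT held without any 1 library for both. Between the knock-outs, the call was lost for Acta2 without WT replicate 2 or 3, Sqstm1 KO replicate 2 or Nbr1-Sqstm1 DKO replicate 1 or 3 (0.053 to 0.15), for Actg2 without Sqstm1 KO replicate 1 or 2 or Nbr1-Sqstm1 DKO replicate 3 (0.088 to 0.15), and for both with only these groups in the fit. Tpm1, tropomyosin 1, averaged 292, 539 and 281 and was called in Sqstm1 KO against WT (0.88) and in Nbr1-Sqstm1 DKO against Sqstm1 KO (-0.94; SE 0.23, limma adjusted p = 0.034 and 0.023). The first was lost without any 1 WT library, Sqstm1 KO replicate 1 or 2 or Nbr1-Sqstm1 DKO replicate 3 (0.056 to 0.16), and with quantile normalization; the second was lost without WT replicate 2, Sqstm1 KO replicate 1 or Nbr1-Sqstm1 DKO replicate 1 or 3 (0.061 to 0.095), and both with only 2 groups in the fit. Mylk, myosin light chain kinase, averaged 6.15, 22.4 and 19.9 and its rise in Sqstm1 KO (1.76, SE 0.43, limma adjusted p = 0.027) was lost without any 1 WT library or Sqstm1 KO replicate 1 or 2 (0.051 to 0.14); it overlaps E130310I04Rik and Gm21691. The 8 summed markers of activated stellate cells ran from 1675 to 1817 in WT, 5499 to 6317 in Sqstm1 KO and 4502 to 6588 in Nbr1-Sqstm1 DKO. Col1a1 and Col1a2 made the largest part of these sums. Col1a1 was not called in any comparison (limma adjusted p = 0.17, 0.98 and 0.16). Tagln was called in both as well (limma adjusted p = 0.00057 and 0.031). Its call in Nbr1-Sqstm1 DKO was lost without any 1 WT or Nbr1-Sqstm1 DKO library. Lox alone of the 8 averaged lower in both knock-out groups than in WT (269, 156 and 209) and was not called. It overlaps AC161119.1 on the opposite strand. The sum was low in WT and high in both knock-out groups, whereas Bdkrb2 was low in WT and Sqstm1 KO and high in Nbr1-Sqstm1 DKO. Any link between them was not tested.

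**Figure D4:**
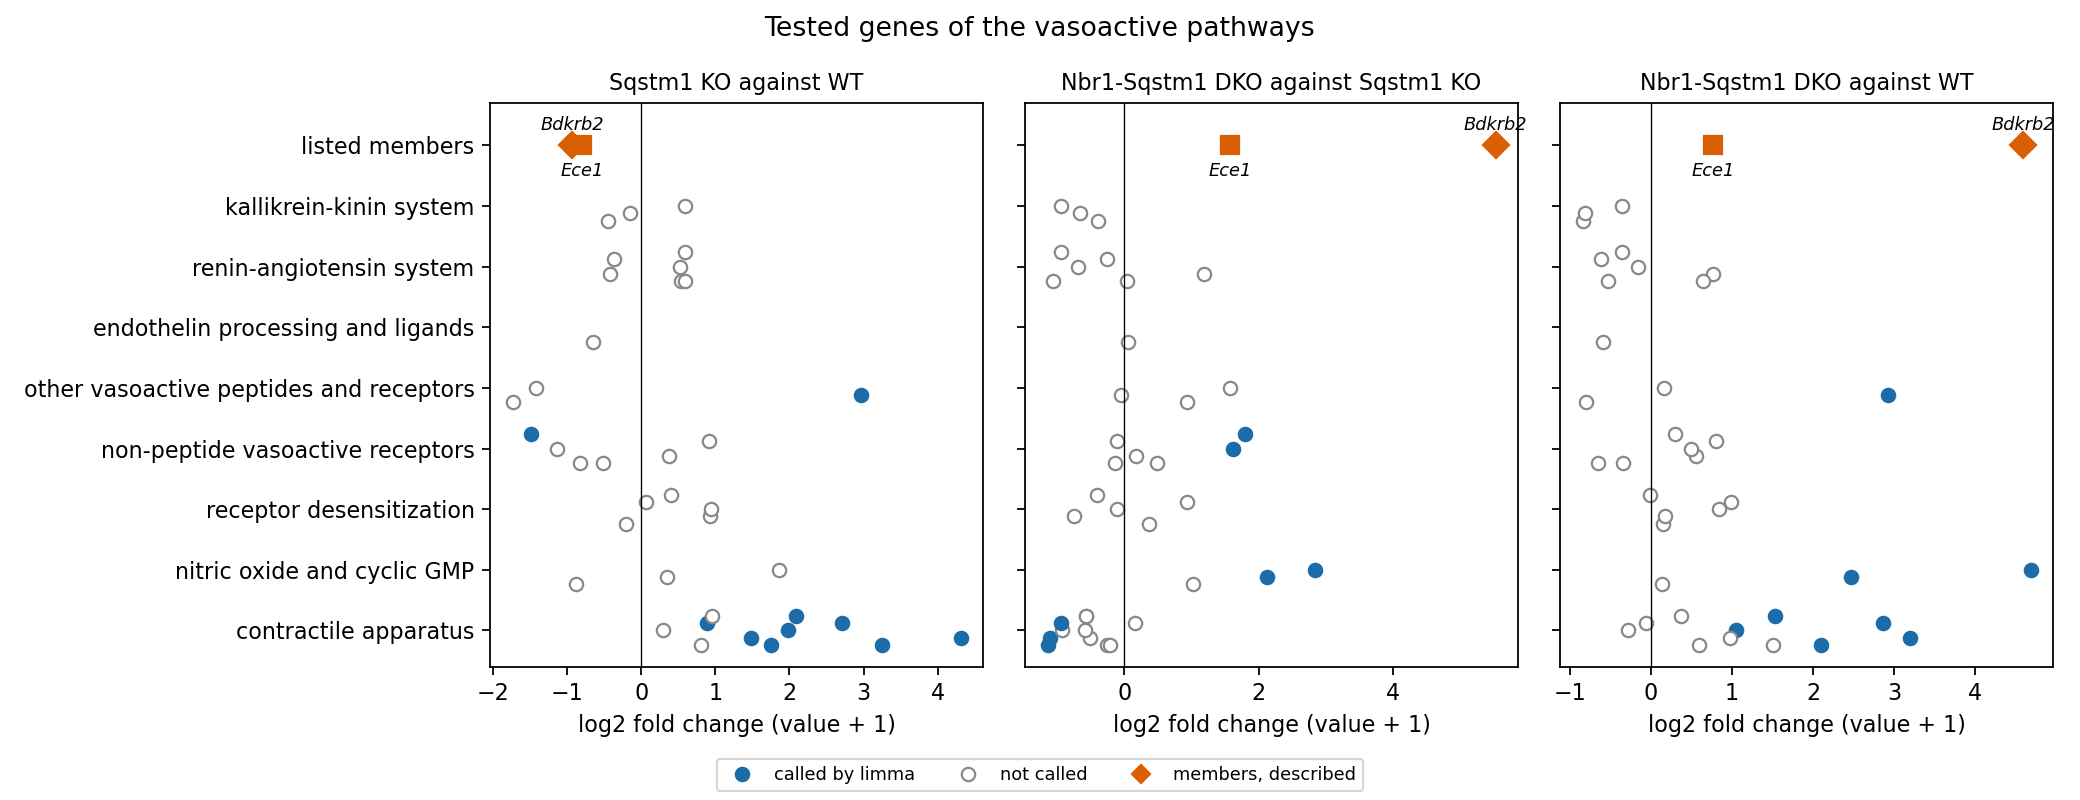
Log2 fold changes of tested pathway genes in 8 of the lists, 1 panel per comparison, with the members Bdkrb2 and Ece1 in the top row; a gene of 2 lists is drawn in both, filled points passed the limma threshold, Tagln among the contractile genes overlaps Pcsk7 on the opposite strand, and members are described without a test. Bdkrb2 sits at 5.52 and 4.59 in the comparisons with Nbr1-Sqstm1 DKO, while the contractile genes lie to the right in Sqstm1 KO against WT.

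Calls came from limma with trend over all 9 libraries, two-sided, with Benjamini-Hochberg adjustment over all 10118 tested genes at 0.05. Bdkrb1 and the groups of Bdkrb2 near 0 rest on 5 to 33 reads, and 3 libraries a group limit every comparison; a permutation of 3 against 3 could not go below an exact p of 0.1.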

How the data were processed

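RNA-seq was deposited for 9 cultures of mouse hepatic stellate cells. Per the submitters' processing notes the tools were STAR and DESeq2 and the build GRCm39; the sources used here give no version, annotation, counter or strand setting. The deposited values are a signal: the authors scaled each library's gene read counts by a single size factor. All 121126 values above 0 were whole multiples of a library's smallest step within 0.01 (100%), and the reads were recovered from these. No per-sample column was left unused (0). Genes that reached 10 in 3 or more libraries were tested with limma 3.58.1 (R 4.3.3) on log2(value + 1). edgeR 4.0.16 and DESeq2 1.42.0 were run on the recovered reads as alternatives, and the scripts were tested on simulated data. Group floors were 3 reads, and intervals are 95% and cover counting error only. Named genes were the members, up to 2 called genes per list, direction and comparison by smallest p, fixed ligands and enzymes, the targeted genes and the 3 most correlated genes per member. Members, lists and rules were chosen with earlier results of these data known. Of the table's genes, 12370 (88.2%) matched the GENCODE annotation, used for names, order and overlaps and not for coordinates, because its build differs; the RefSeq promoter table kept its own build. One of the gene lists is not reported here on its own; its genes remain in the totals.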

Additional observations from a re-analysis of the deposited data

How the results depend on the processing

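The direction of each named call kept its sign in all alternatives run; of 18 named calls in pathway genes, 9 held and 9 were lost when libraries were left out in turn. A minimum of 50 left 290, 291 and 360 genes called in Sqstm1 KO against WT, Nbr1-Sqstm1 DKO against Sqstm1 KO and Nbr1-Sqstm1 DKO against WT, and 5, 4 and 5 pathway genes; fewer genes were tested there, and Ece1 was among those left out. Fitting only the 2 groups compared gave 352 genes and 3 pathway genes in the second comparison and 1229 genes in the third; the cause was not tested. As a description of the members, which were chosen on these contrasts, 2 lay past the threshold in the second with no filter, Bdkrb1 being the other; with 10 reached in 2 or more libraries, a filter chosen after seeing the data, 1 did. Leaving out libraries in turn gave 264 to 659, 333 to 777 and 294 to 1409 genes, 6 to 11, 2 to 10 and 6 to 14 pathway genes, and 1 to 2 members in the second. Replicate numbers came only from sample names. Same-numbered libraries correlated over 0.1 in 5 of 9 pairs (-0.115 to 0.178), and differently numbered pairs ran from -0.258 to 0.261. Whether the numbers mark a shared batch is not known. The replicate block gave 690, 672 and 754 genes, against 568, 600 and 650 without it. It gave 10, 8 and 10 pathway genes, and 0, 1 and 1 members. Values of a few reads limit Bdkrb1, Serping1, Avpr1a, Rgs4, Wt1, Serpina3n and Alpl.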
